A study of Homo sapiens with 2 samples.

Results

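The ERK feedback phosphatases and the Sprouty and SPRED proteins were examined in a HCT116 library labelled CREB1 wild-type and another labelled CREB1 knockout. The group holds 10 genes of the 57820 in the deposited table: the dual-specificity phosphatases DUSP4, DUSP5, DUSP6 and DUSP7, the Sprouty genes SPRY1, SPRY2 and SPRY4, and the Sprouty-related genes SPRED1, SPRED2 and SPRED3. They were taken by gene identifier from a list of names, and none was dropped for its values. The list itself was chosen with earlier results of these data known. HCT116 is a human colorectal carcinoma line. One group was the line with CREB1 wild-type genotype. The other was a CREB1 knockout line derived from it with a plasmid (PX461) encoding Cas9 nickase and guides against CREB1, and it descends from 1 clone, so effects of the clone and of the genotype cannot be told apart. Each group is 1 library of ribosome-depleted total RNA from cells in serum-containing DMEM.

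ERK is the last kinase of the RAS, RAF and MEK cascade, which carries growth factor signals to the nucleus. Active ERK induces genes whose products damp the cascade, and the level of their transcripts is widely read as a measure of ERK output. DUSP phosphatases remove phosphate from ERK itself, whereas Sprouty and SPRED proteins act near the membrane, upstream of ERK.

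The expected counts, which are estimated reads per gene, came to 34511071 for the wild-type cells and 31178312 for the knockout cells. Levels below are counts per 1000000 (CPM) after scaling with the trimmed mean of M-values (TMM), and ratios are knockout over wild-type. Genes whose CPM averaged 1 or more over both libraries were treated as expressed, and there were 12886 of them. A call, higher or lower, required a difference of 2-fold or more together with an exact 95% counting interval that excluded no difference. With 1 library per group there was no replicate check, no test could be made, and the intervals cover counting error only. CREB1 itself had 614 and 499 counts (log2 ratio -0.23, interval -0.40 to -0.05), which does not show whether the protein was lost. The epithelial markers EPCAM, CDH1, KRT8, KRT18 and KRT19 were all expressed, with a summed level of 4007 CPM in the wild-type and 3511 CPM in the knockout library. The blood marker genes PTPRC, CD3E, CD79A and LYZ summed to 0.446 and 0.594 CPM, with PTPRC and CD3E at 0 in both libraries. The endothelial markers VWF and CDH5 summed to 0.505 and 0.532 CPM. PECAM1, also listed as an endothelial marker, was not matched to a gene of the deposited table and was not assessed. Fibroblast markers summed to 2.47 and 2.81 CPM. Nerve markers summed to 132 and 152 CPM, nearly all from TUBB3 (4401 and 4816 expected counts). In cultured cells measured in bulk, fewer cells transcribing a gene and less RNA per cell cannot be told apart.

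Of the 10 genes, 9 were expressed and SPRED3 was not. DUSP6 was the one member called higher, and no member was called lower. Among all expressed genes, 1.28% were called higher and 1.64% lower. Of all calls, 43.9% were higher, against 54.6% with total-count scaling. At a 1.5-fold threshold, DUSP6 and SPRY4 passed as higher and DUSP5 as lower, against 5.25% and 5.50% of all expressed genes. The median log2 ratio of the 9 expressed members was 0.31, with 6 above 0 and 3 below. That of all expressed genes was 0.0078, with 51.2% of them above 0. The counting interval lay wholly above no difference for 6 of the 9, where 26.4% of expressed genes did so, and wholly below for 2 of the 9, where 25.5% did so. These shares also depend on depth, since well-covered genes have narrow intervals. The members thus did not share a direction, and the expressed members with the highest and the lowest ratio were both DUSP genes.

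**Figure D1:**
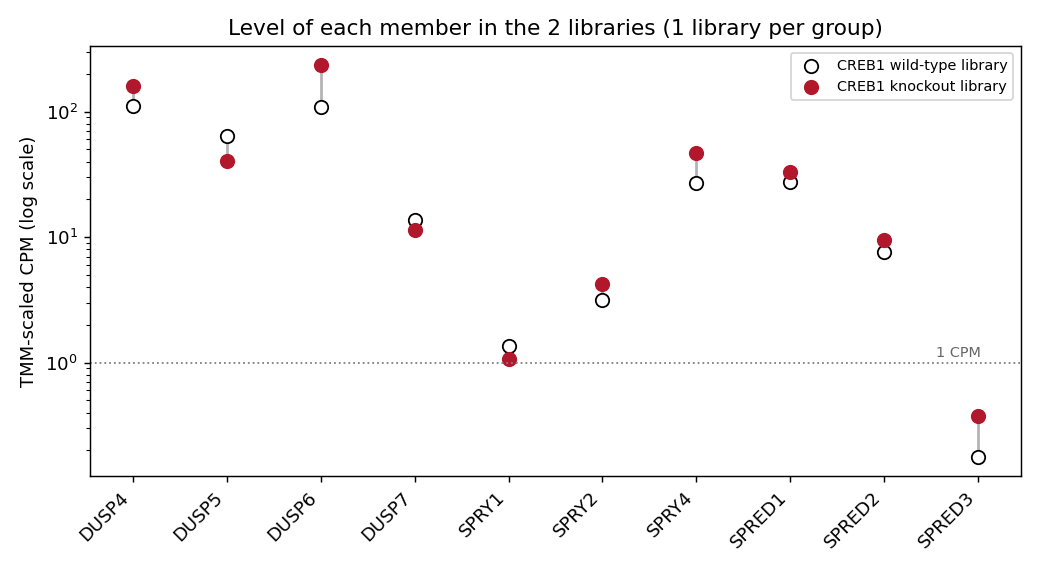
TMM-scaled CPM (vertical log axis) of each of the 10 genes in the wild-type (open points) and knockout (filled points) library; CPM is not divided by gene length, so points of different genes are not comparable. DUSP6 went from 109 to 233 CPM, DUSP5 from 64.5 to 40.2 CPM, and SPRED3 lay below 1 CPM in both libraries.

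CREB1 binds the cAMP response element (CRE), so the promoters of the members were searched for it and for motifs of factors that ERK activates. RefSeq promoter windows of 300 bases (GRCh38.p14; 250 before the start and 50 after) were found for 8 of the 10 genes, 13 windows in all; DUSP4 and DUSP5 had none. The full CRE, TGACGTCA, was in 0 of the 13 windows, against 1.84% of 34796 promoters of that length. Its shorter core TGACG, which the full motif also contains, was in 1 window each of SPRY4, SPRY2 and SPRED2, 3 of 13 against 24.5% of all promoters. The ETS motif CCGGAAGT was in 0 of 13, against 4.13%. The AP-1 motif TGANTCA was in a window of SPRED2 and a window of SPRED3, 2 of 13 against 7.72%. Both strands were searched. The following stretches of 30 bases show the matches that begin before a start, in capitals, and for DUSP6, which had none, the last bases before the start:
SPRY4, CRE core 68 bases before the start (chr5:142324297-142324326, minus strand): cttcggagccgTGACGgactgaattccctc
SPRY2, CRE core 190 bases before the start (chr13:80341298-80341327, minus strand): tcggatccacaTGACGccatttactgctgc
SPRED2, AP-1 motif 6 bases before the start (chr2:65366766-65366795, minus strand): taaccctcggaTGACTCAtccggtacaatg
SPRED3, AP-1 motif 60 bases before the start (chr19:38389720-38389749, plus strand): ccgttgctgggTGACTCAgtgagctttgca
DUSP6, no match (chr12:89352502-89352531, minus strand): aatgtatccattgagacgctcgctgtttgt

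The share of member windows with the CRE core was close to that of all promoters. A match is a string of letters and not a measured site. The windows follow RefSeq starts, and other starts were not searched. All 250 bases before the start lay inside exons annotated in GENCODE release 29, on either strand, for the windows of DUSP6 and SPRED1 and for 1 window each of SPRY1 and SPRED3. GC content of the windows ran from 39.3% in a SPRED2 window to 78.0% in that of DUSP7, with a median of 58.7% over all promoters.

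The phosphatases are described first. DUSP6, a cytoplasmic phosphatase specific for ERK, was represented by 3680 wild-type and 7456 knockout counts, equal to 109 and 233 CPM. It was 2.13-fold higher in the knockout library (interval 2.05 to 2.22, log2 ratio 1.09), and 125 of the 12886 expressed genes had a ratio at least as high, itself included. DUSP6 was called in each of the 6 other settings of scaling, prior count and rounding, with log2 ratios from 1.07 to 1.17. Large ratios were rare at its level, as the plot of all genes shows. Of 868 genes averaging 100 CPM or more, a limit chosen after the values were seen, 5 had a log2 ratio of at least that of DUSP6, itself included, and the other 4 were OSBPL8, JAG1, SOX4 and SERPINH1. An antisense gene, AC024909.2, overlaps 1875 bases of DUSP6 exons on the opposite strand. It has no row of its own in the table, and no source used here says whether the counting used strand, so its reads cannot be told apart from those of DUSP6.

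DUSP7, the other cytoplasmic ERK phosphatase of the group, was scarcer and slightly lower. Its counts were 460 (wild-type) and 367 (knockout), equal to 13.7 and 11.5 CPM. Its log2 ratio of -0.25 had an interval from -0.45 to -0.05, and with total-count scaling that interval included no difference. The ratio of DUSP6 exceeded that of DUSP7 by 2.54-fold (interval 2.20 to 2.94), a comparison in which the scaling of the libraries cancels.

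The nuclear pair differed in direction. DUSP4, an inducible nuclear phosphatase of ERK that also acts on JNK and p38, had 3762 wild-type and 5163 knockout counts (112 and 161 CPM). It was 1.44-fold higher (interval 1.38 to 1.51) and was not called. DUSP5, a nuclear phosphatase specific for ERK, had 2170 and 1285 counts (64.5 and 40.2 CPM). It was 1.60-fold lower (log2 ratio -0.68, interval -0.78 to -0.58), also not called at 2-fold, and 4.14% of expressed genes had a ratio at least as low. Relative to DUSP4, the member of the family with the most wild-type counts, the log2 ratio of DUSP5 differed by -1.21 (interval -1.33 to -1.09) and that of DUSP6 by 0.56 (0.48 to 0.65). The widest gap in the family was that between DUSP6 and DUSP5, whose ratios differed 3.42-fold (interval 3.16 to 3.71).

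**Figure D2:**
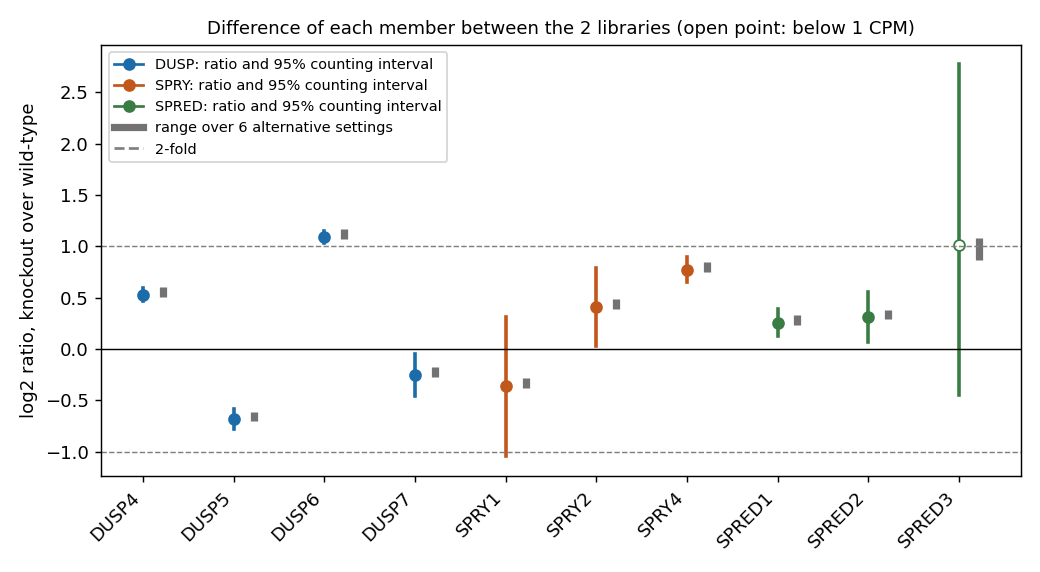
Log2 ratio, knockout over wild-type, of each gene (points) with its exact 95% counting interval (lines); grey bars give the range over the 6 other settings and dashed lines 2-fold. DUSP6 at 1.09 lies above the 2-fold line with its whole interval, DUSP5 at -0.68 is the lowest, and the intervals of SPRY1 and SPRED3 include 0.

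With these opposite differences, the make-up of the phosphatase counts differed between the libraries. Of the counts of the 4 DUSP genes, DUSP6 held 36.5% in the wild-type library (Clopper-Pearson 95% interval 35.6% to 37.5%) and 52.2% in the knockout library (51.4% to 53.1%). The share of DUSP5 was 21.5% (20.7% to 22.4%) and 9.0% (8.54% to 9.49%), and that of DUSP7 was 4.57% and 2.57%. DUSP4 held 37.4% and 36.2%. Counts are not divided by gene length, so these shares compare the libraries and not the genes. Per kb of exon, the wild-type and knockout shares were 35.7% and 55.9% for DUSP6, 37.3% and 17.1% for DUSP5, and 23.3% and 24.7% for DUSP4.

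Levels of different genes can be compared only per length, here as TMM-scaled CPM per kb of annotated exon. On that scale DUSP5 and DUSP6 were nearly level in the wild-type library, at 24.7 and 23.6, above DUSP4 at 15.4 and DUSP7 at 2.42. In the knockout library the order was DUSP6 at 50.3, DUSP4 at 22.2, DUSP5 at 15.4 and DUSP7 at 2.03. DUSP5 was thus the highest of the family in the wild-type library and lay below DUSP6 and DUSP4 in the knockout library. The nuclear genes DUSP4 and DUSP5 summed to 40.1 (wild-type) and 37.6 (knockout), whereas the cytoplasmic genes DUSP6 and DUSP7 summed to 26.03 and 52.4. The higher cytoplasmic sum came from DUSP6 alone, since DUSP7 was slightly lower, and the nuclear sum joins a higher DUSP4 with a lower DUSP5. These sums cover members of the group only. DUSP9, a cytoplasmic phosphatase outside the group, stood at 7.48 (wild-type) and 5.53 (knockout) on this scale. The level of DUSP6 lay above that of 92.3% of expressed protein-coding genes in wild-type cells and 96.8% in knockout cells. Dividing by the longest transcript in place of the union of exons raised the wild-type level of DUSP4 from 15.4 to 20.2 and that of DUSP7 from 2.42 to 4.09, and left the order of the 4 genes as it was in both libraries.

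**Figure D3:**
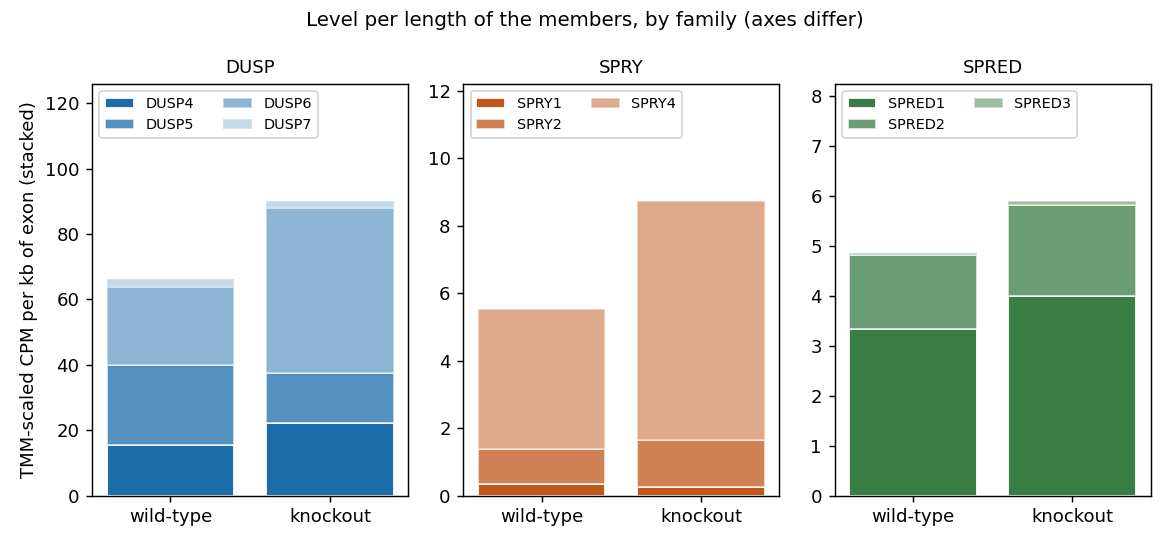
Stacked TMM-scaled CPM per kb of exon in the wild-type and knockout library for the DUSP, SPRY and SPRED genes, on separate vertical axes starting at 0. The DUSP6 segment grows from 23.6 to 50.3 while that of DUSP5 shrinks from 24.7 to 15.4, and SPRY4 fills most of the SPRY bars.

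The Sprouty genes come next. Sprouty proteins are recruited to the membrane after receptor activation and block signals from receptor tyrosine kinases to RAS or RAF. SPRY4 had 916 wild-type and 1486 knockout counts, equal to 27.2 and 46.5 CPM. It was 1.71-fold higher (interval 1.57 to 1.86, log2 ratio 0.77), under the 2-fold threshold, and 2.58% of expressed genes had a ratio at least as high. The antisense gene SPRY4-AS1, which lies over the SPRY4 locus without exon overlap, had 22 and 26 counts.

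SPRY2, which binds the ubiquitin ligase CBL, had 106 and 134 counts (3.15 and 4.19 CPM) and a log2 ratio of 0.41 with an interval from 0.03 to 0.79. SPRY1 was near the expression limit with 46 and 34 counts (1.37 and 1.06 CPM). Its log2 ratio was -0.36, and the interval from -1.05 to 0.31 included no difference. Against SPRY4, the log2 ratio of SPRY1 differed by -1.13 (interval -1.83 to -0.45). That of SPRY2 differed by -0.36 (-0.76 to 0.04), which was not distinguishable from 0 at this depth. SPRY4 was the main Sprouty transcript in both libraries, with 85.8% of the counts of the 3 genes in the wild-type (interval 83.5% to 87.8%) and 89.8% in the knockout library (88.3% to 91.3%). Per kb of exon it stood at 4.15 and 7.08, against 1.04 and 1.38 for SPRY2 and 0.345 and 0.268 for SPRY1.

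SPRED proteins bring the RAS-inactivating protein neurofibromin (NF1) to the membrane. SPRED1, the member mutated in Legius syndrome, had 928 wild-type and 1054 knockout counts (27.6 and 32.96 CPM). Its log2 ratio was 0.26 (interval 0.13 to 0.39). SPRED2 had 257 and 303 counts (7.64 and 9.48 CPM) with a log2 ratio of 0.31 (0.07 to 0.56). The difference between these ratios was 0.05 on the log2 scale, with an interval from -0.22 to 0.33, so a gap of more than 1.26-fold lay outside it. SPRED1 held 77.9% of the counts of the 3 genes in wild-type cells and 77.0% in knockout cells. SPRED3 had 6 and 12 counts (0.178 and 0.375 CPM). Its 2.02-fold ratio had an interval from 0.731 to 6.83 and carries no direction at this depth.

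**Figure D4:**
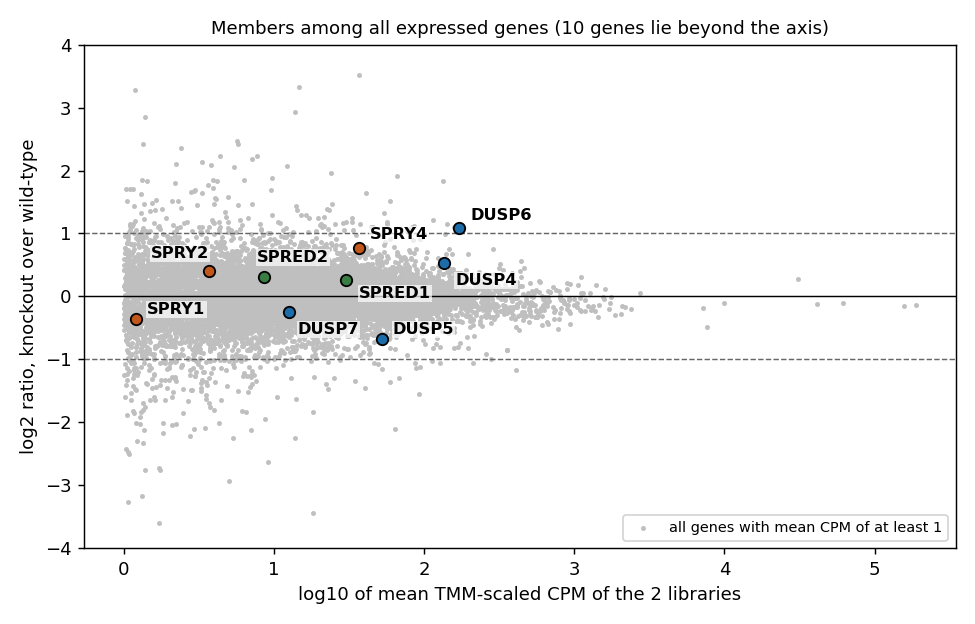
Log2 ratio against the log10 of the mean TMM-scaled CPM for all 12886 expressed genes (grey) and the 9 expressed members (coloured by family), with dashed lines at 2-fold; 10 genes lie beyond the vertical axis. DUSP6 sits above the 2-fold line where the cloud of genes is narrow, and DUSP5 lies at its lower side.

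Genes beside each member on the chromosome were compared to see whether a whole region differed. Over the 5 nearest expressed protein-coding genes on each side, the median log2 ratio was 0.09 around DUSP6 (chromosome 12), -0.05 around SPRY4 (chromosome 5) and -0.11 around DUSP5 (chromosome 10), against 1.09, 0.77 and -0.68 for the genes themselves. DUSP4 on chromosome 8 had the highest such median, 0.22, beside its own 0.53, and with 10 genes on each side that median was 0.10. Around the other 6 members the medians ran from -0.13 (SPRED3) to 0.10 (SPRED1). Neighbours called at 2-fold were 1 of 10 around each of DUSP4, DUSP6 and SPRY1, all higher, and 1 of 10 around SPRED3, lower.

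Genes with the most similar values over the 2 libraries were found for the member of each family with the most wild-type counts, by distance in log2 CPM. For DUSP4 they were PRPF8 (distance 0.034), MACF1 (0.053) and LZTS2 (0.060). For SPRY4 they included MAGED2 (0.089) and MARCKSL1 (0.098), and for SPRED1 they were CSTF2T, COIL and SMARCD1 (0.017 to 0.019). With 2 libraries such likeness means only a similar level in each.

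The remaining genes of the pathway were read from 5 lists. The other MAP kinase phosphatases, several of which prefer JNK and p38, had no called member, with 6 of 9 listed genes expressed. All 6 lay below 0 with a median of -0.32 on the log2 scale, where all expressed genes stood at 0.0078. The counting interval lay wholly below no difference for 3 of the 6, where 25.5% of all expressed genes did so. Those of DUSP8, DUSP10 and DUSP16 included no difference. With total-count scaling DUSP10 (-0.02) changed sign and 5 of 6 lay below. DUSP1, an immediate early phosphatase, had 253 and 168 counts (log2 ratio -0.52, interval -0.81 to -0.23). DUSP9, a cytoplasmic phosphatase close to DUSP6 and DUSP7, had 699 and 491 counts (-0.44, interval -0.61 to -0.27). In the list of atypical dual-specificity phosphatases, 8 of 12 matched genes were expressed, 5 lay above 0 and none was called. DUSP28 (0.35, interval -0.03 to 0.73) and DUSP3 (0.27, interval 0.14 to 0.40) were farthest from 0. Counting intervals lay wholly above no difference for 1 of the 8 and wholly below for 2.

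The cascade from adaptors to ERK and its RSK kinases held 21 expressed genes, all within 1.5-fold. Of these, 9 lay above 0 and 12 below, with a median of -0.08 and none called. Counting intervals lay wholly below no difference for 10 of the 21 and wholly above for 2, against 25.5% and 26.4% of expressed genes. The list ran from PEBP1, an inhibitor of RAF, at -0.41 (6854 and 4900 counts) to SHOC2, a RAF-activating scaffold, at 0.29. ARAF, a RAF kinase, was second from the low end at -0.34. Named for their place in the cascade and not by the naming rule, the MEK gene MAP2K1 had a log2 ratio of -0.33 and the ERK gene MAPK3, whose product the phosphatases act on, one of 0.03, closer to 0 than any expressed member.

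Partners of Sprouty and SPRED and other brakes of RAS signalling were more varied. Of 16 expressed genes, 10 lay above 0, where 51.2% of all expressed genes did so, and the median was 0.24. The count above 0 became 12 with total-count scaling and 9 with DESeq2 size factors. Counting intervals lay wholly above no difference for 9 of the 16 and wholly below for 3, against 26.4% and 25.5% of expressed genes. IL17RD, also known as Sef, a membrane protein that restrains MEK and ERK signalling, was called higher with 417 and 816 counts (log2 ratio 1.04, interval 0.87 to 1.22), close to the ratio of DUSP6. LRIG1, which promotes loss of EGF receptors, was called lower with 194 and 54 counts (-1.76, interval -2.23 to -1.33). NF1, the partner of SPRED proteins, had 432 and 542 counts (0.40, interval 0.22 to 0.59). Of the CBL genes, CBLB had 99 and 160 counts (0.76), CBL 848 and 963 (0.26) and CBLC 528 and 493 (-0.03); NF1 and the CBL genes were named as partners of members and not by the naming rule.

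Genes outside the group that ERK is known to induce showed both directions. Of 20 expressed genes, 13 lay above 0 and 7 below under each scaling tried, and the median was 0.13. Among all expressed genes, 51.2% lay above 0 with TMM scaling. Counting intervals lay wholly above no difference for 11 of the 20 and wholly below for 6, against 26.4% and 25.5% of expressed genes. HMGA2 was called higher (1.12) and MYC lower (-1.12). Named after their values were seen, LIF (0.89), ETV1 (0.74) and ETV4 (0.55) lay above 0, whereas ETV5 (0.03) and CCND1 (-0.11) lay near it and EPHA4 (-0.89) below. The share of called genes was 2 of 20, with 1 in each direction, against 1.28% called higher and 1.64% lower among all expressed genes.

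**Figure D5:**
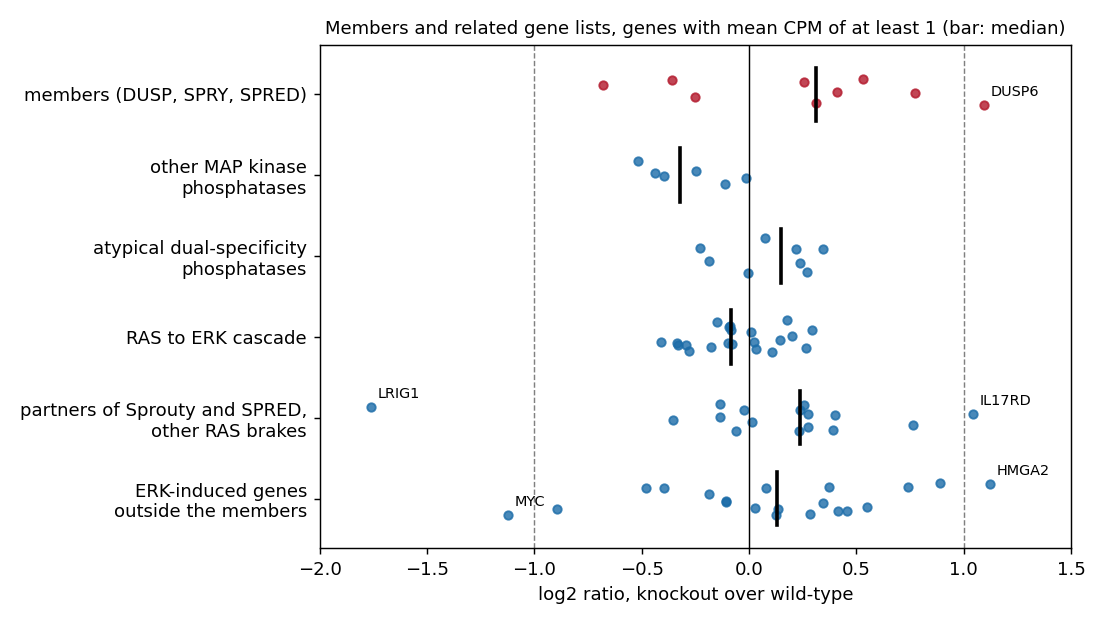
Log2 ratios, knockout over wild-type, of the expressed members (red) and of the expressed genes of 5 related lists (blue), 1 point per gene; black bars are medians, dashed lines 2-fold, and called genes are named. The 6 other MAP kinase phosphatases all lie below 0, 3 of them with a counting interval wholly below it, while the members spread from -0.68 to 1.09.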

How the data were processed

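The authors deposited expected counts per gene for 2 libraries, unscaled. The build was hg19 and the tools RSEM 1.2.26, STAR 2.4.2a and cutadapt 2.0, per the submitters' processing notes; for the annotation, strand setting and filters nothing is given in the sources used here. Names, exon lengths and gene order came from GENCODE release 29 (GRCh38) by identifier without version, which matched 52338 of 57820; the rest stayed in the totals. All 10 members had whole-number counts. Counts were rounded and scaled by TMM in edgeR 4.0.16 (R 4.3.3), with log2 ratios at a prior count of 0.5. Clopper-Pearson 95% intervals of the conditional binomial were used for ratios, exact conditional odds ratios for the 12 pairs of members within a family. Intervals treat read pairs as independent molecules. Alternatives were total-count, upper-quartile, DESeq2 1.42.0 and protein-coding TMM scaling, a prior count of 2, unrounded counts, other expression filters, and a 1.5-fold threshold. All members were named; from each list, called genes or else the 2 farthest from 0, and the 3 genes nearest in level to the member of each family with the most wild-type counts. Members and lists were chosen with earlier results of these data known. Protein sequences were not used here.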

Additional observations from a re-analysis of the deposited data

How the results depend on the processing

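Every member kept the sign of its log2 ratio under the 6 other settings of scaling, prior count and rounding, and DUSP6 was the one called member in each. Total-count scaling took DUSP4 to 0.60 and DUSP6 to 1.17, both above their counting intervals under TMM, and moved the median of all expressed genes by 0.073. It gave 201 genes called higher and 167 lower (165 and 211 with TMM). Without an expression filter 451 and 635 genes were called, at a mean CPM of at least 5 they were 75 and 62, and at 1.5-fold 677 and 709, with 2 members higher and 1 lower. No paired analysis was possible because each group has 1 library, and leaving out a replicate was not possible for the same reason. Depth limits SPRY1 and SPRED3, whose intervals included no difference in every setting. Neighbour medians moved by over 0.1 for DUSP4, DUSP5 and SPRED3 with 10 genes on each side, to 0.10, 0.03 and 0.08.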
